A study of Homo sapiens with 6 samples.

Results

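The Wnt pathway of U251 cells, an established human glioma line, was examined on 2 fiber substrates. A list of 46 Wnt ligands, receptors, inhibitors and effectors was matched by gene symbol to the array's probe sets. Of these genes 43 had a probe set annotated to that symbol alone, 37 were bright enough to be tested among 12381 genes, and 6 were not. Each gene was read by the probe set with the highest mean over the arrays.

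Cells were plated in dishes coated with electrospun nanofibers of poly-caprolactone, a polyester. In 3 cultures the nanofibers were highly aligned, and in 3 cultures they were randomly oriented. All 6 cultures were grown for 24 h in medium with 10% serum and no further agent, and each gave total RNA for 1 Affymetrix HG-U133 Plus 2 array. The cultures of a substrate are described as independent, but all come from 1 cell line, and a flat substrate was not part of the series. The comparison asks whether the direction of the fibers goes with transcript levels.

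Wnt proteins are secreted lipid-modified ligands that bind Frizzled receptors. In the canonical branch the co-receptors LRP5 and LRP6 join the complex, the destruction complex of AXIN, APC and GSK3 is inhibited, and beta-catenin enters the nucleus to act with TCF and LEF factors. In the planar polarity branch, Wnt ligands such as WNT5A and the membrane proteins VANGL, CELSR and PRICKLE orient cells within a tissue and steer migration without beta-catenin. WNT5A and Frizzled receptors have been studied in the invasion of glioma cells.

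The stretches of DNA before the transcription start are shown for 4 members with 1 annotated start each. LGR4, FZD5 and CELSR2 read below random fibers on every aligned array. DKK1, a textbook target of beta-catenin, is set beside them. Each stretch holds the 250 bases before the RefSeq start on GRCh38.p14, printed 5′ to 3′ on the gene's strand. LGR4 lies at chr11:27472791-27473040 on the minus strand, and FZD5 at chr2:207769907-207770156 on the minus strand. CELSR2 lies at chr1:109249289-109249538 on the plus strand, and DKK1 at chr10:52314031-52314280 on the plus strand. Capitals mark the TCF and LEF core (CTTTGAA or CTTTGAT or CTTTGTA or CTTTGTT), the CCAAT box (CCAAT) and the TATA box (TATAAA), each searched on both strands.
LGR4: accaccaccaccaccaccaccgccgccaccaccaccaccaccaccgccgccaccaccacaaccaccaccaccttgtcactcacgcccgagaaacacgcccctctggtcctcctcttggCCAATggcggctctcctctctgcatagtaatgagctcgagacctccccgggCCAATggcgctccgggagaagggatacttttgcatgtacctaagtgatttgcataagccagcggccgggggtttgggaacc
FZD5: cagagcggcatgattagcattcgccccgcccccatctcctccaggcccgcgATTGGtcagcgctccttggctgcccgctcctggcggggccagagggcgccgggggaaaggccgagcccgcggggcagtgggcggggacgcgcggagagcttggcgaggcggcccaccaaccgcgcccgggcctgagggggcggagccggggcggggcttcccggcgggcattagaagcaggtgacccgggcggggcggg
CELSR2: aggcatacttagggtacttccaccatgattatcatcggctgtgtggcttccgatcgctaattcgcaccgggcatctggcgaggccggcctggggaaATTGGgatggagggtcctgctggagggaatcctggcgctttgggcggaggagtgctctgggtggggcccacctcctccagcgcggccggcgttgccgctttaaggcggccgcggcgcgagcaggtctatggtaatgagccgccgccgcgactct
DKK1: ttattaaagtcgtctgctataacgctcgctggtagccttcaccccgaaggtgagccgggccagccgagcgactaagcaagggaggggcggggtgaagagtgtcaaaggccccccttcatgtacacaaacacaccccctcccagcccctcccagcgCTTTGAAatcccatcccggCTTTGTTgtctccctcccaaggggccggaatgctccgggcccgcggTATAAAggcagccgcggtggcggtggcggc

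DKK1 held 2 matches to the TCF and LEF core and 1 TATA box, and the other 3 stretches held neither. LGR4 held 2 CCAAT boxes, while FZD5 and CELSR2 held 1 each, on the opposite strand. No marked motif overlapped another. Of 35116 such windows in the RefSeq table, 12% held the TCF and LEF core, 32% a CCAAT box and 10.7% a TATA box. For 35 of the 46 genes 48 windows were counted, and 2 of these windows, of DKK1 and TCF7L2, held a TCF and LEF core. This count of members left out windows on 1 chromosome, which the 35116 windows kept, so the sets are not alike. A match describes the letters of the window, and binding was not measured.

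The array of aligned replicate 3 stood apart from the others, with a root mean square distance of 0.38 log2 units to the mean of the random arrays, against 0.17 and 0.19 for aligned 1 and 2. A difference that moved by over 1.5 times or turned its sign without this array is therefore followed by its value without it. Among 10 glial and glioma genes 9 passed the filter on dim signals, and VIM, NES, SOX2, TNC and FABP7 were bright on all arrays. The astrocyte filament gene GFAP read 4.87 to 5.80 on aligned and 5.24 to 6.65 on random fibers, close to the array medians of 5.63 to 5.66. The summed log2 signal of the glial genes was 99.1 to 104.9 on aligned and 104.6 to 107.3 on random fibers. EGFR went against this sum, at 9.053 to 9.264 on aligned and 8.435 to 9.085 on random fibers. The summed signal of 4 neuronal genes, 3 of them above the filter, was 23.6 to 24.0 on aligned and 22.7 to 23.2 on random fibers. Of these SYT1 read 7.552 to 8.056 on aligned and 7.155 to 7.45 on random fibers, while the other neuronal genes overlapped. The sums of fibroblast, endothelial and oligodendrocyte genes overlapped between the groups. Of 4 microglial genes 1 passed the filter. The part of the glial or the neuronal shift in the values below was not tested. In RNA of whole cultures, fewer cells of a kind and less RNA per cell cannot be told apart.

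On aligned fibers most Frizzled receptors and planar polarity proteins had less signal than on random fibers, whereas the ligands and the ligand carrier WLS had more, but no member passed the test over all genes. In limma with Benjamini-Hochberg adjustment 0 of 12381 genes (0%) had an adjusted p under 0.05, and the lowest adjusted p among members was 0.463. Of the 37 members, 11 (29.7%) reached an unadjusted p under 0.05, 9 with a negative and 2 with a positive difference. Over all genes tested 10.5% reached this level, 5.81% with a negative and 4.72% with a positive difference. The members were chosen with earlier results of these data known, so a share above that of all genes is no test of the list. The log2 difference, aligned minus random, was negative in 24 and positive in 13 members, against 47.5% and 52.5% of all genes. Its median was -0.11 over the members and 0.01 over all genes. Without aligned 3 it was negative in 26 members, against 51.5% of all genes, with a median of -0.06. Aligned and random arrays did not overlap in 12 members, 10 below and 2 above, against 18% of all genes, 9.33% below and 8.71% above.

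Leaving out single arrays moved the count of 11. It was 17 when aligned 1 was dropped, 8 for aligned 2 and 7 for aligned 3, where the shares of all genes were 20.1%, 8.38% and 6.58%. It was 8, 4 and 2 when random 1, 2 or 3 was dropped, where the shares of all genes were 9.67%, 5.97% and 5.04%. The last of these counts, 5.41% of the members, was close to its share of all genes. Blocked by replicate number, 14 members were at this level, against 13.6% of all genes. The numbers were taken as pairs from these same values and from no label, which favours smaller SEs with the block, here and below. All 11 kept their sign in the blocked fit and with any array left out. Without aligned 3, 5 of them were again at an unadjusted p under 0.05. VANGL2 passed the filter on dim signals only through the random arrays, so a negative difference was favoured by its selection, here and in every planar polarity count and median below.

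**Figure D1:**
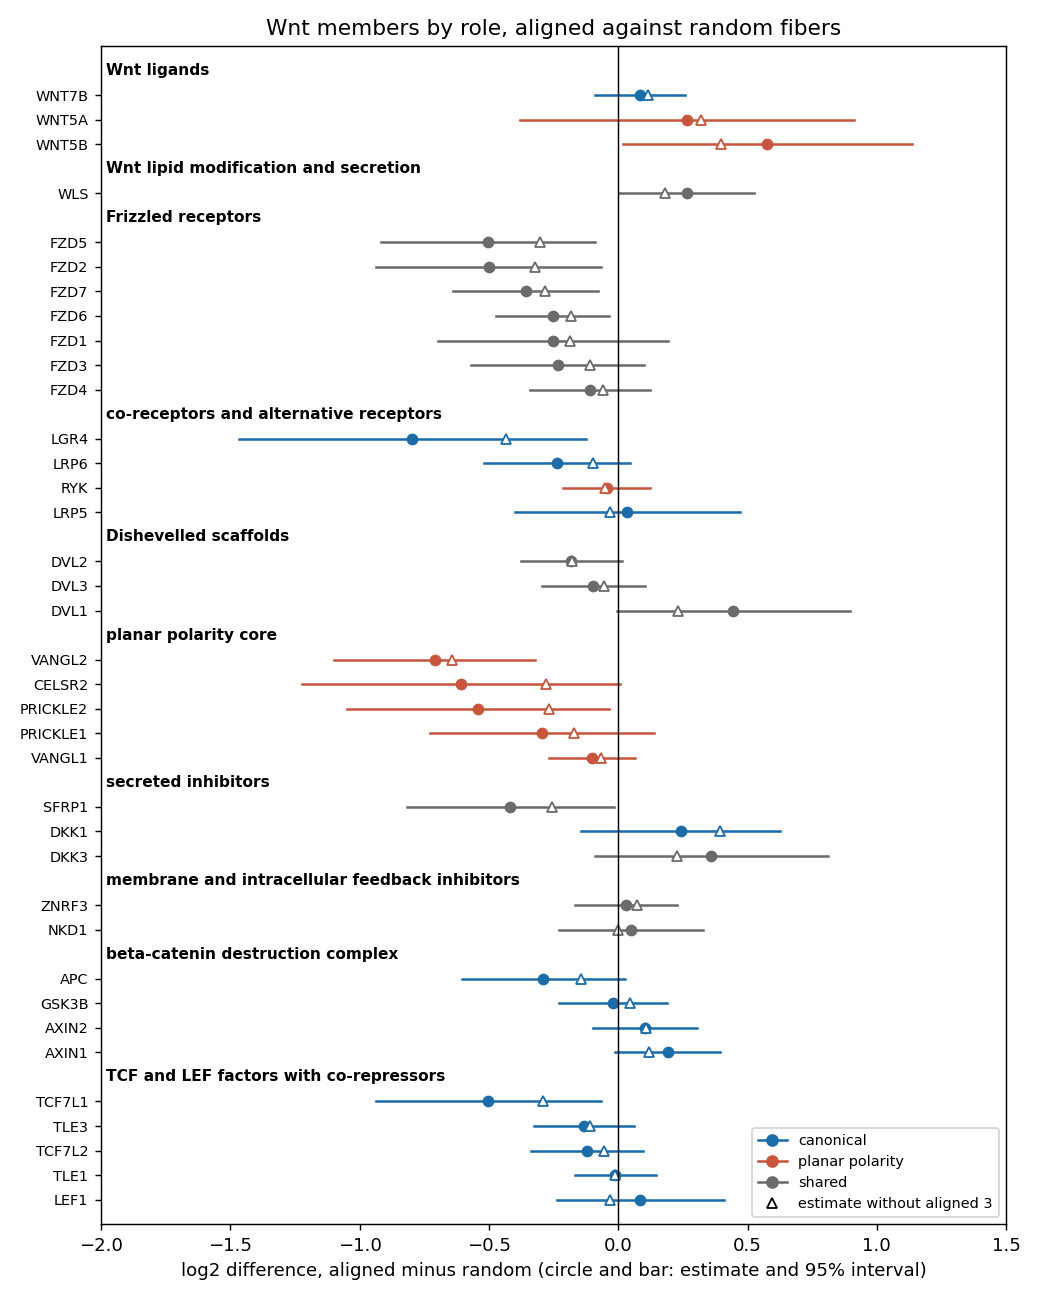
Log2 difference between aligned and random fibers (x axis, log2 units) for the 37 tested Wnt members, grouped by role. Circles and bars give the limma estimate and its 95% interval, and open triangles the estimate without aligned 3, with canonical members in blue, planar polarity members in red and shared members in grey. All 7 Frizzled receptors and all 5 planar polarity core genes lie left of 0, and the 3 ligands and WLS lie right of 0.

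WNT5B, a ligand of the planar polarity branch, read 6.76, 6.57 and 7.21 on aligned fibers (replicates 1 to 3) and 6.69, 6.31 and 5.82 on random fibers. Random 3 was the lowest and aligned 3 the highest, and aligned 2 lay below random 1. The log2 difference was 0.58 ± 0.24 (SE; adjusted p = 0.472 in limma), and 0.40 without aligned 3. Both other WNT5B probe sets were below the filter, with differences of 0.03 and -0.08. WNT5A, the ligand most studied in polarised migration, read 7.67, 6.91 and 7.12 on aligned fibers and 7.53, 6.56 and 6.81 on random fibers. The groups overlapped, with replicate 1 the highest in both. Its difference was 0.27 ± 0.28 (SE; adjusted p = 0.700 in limma). Between arrays of the same number it was 0.13, 0.35 and 0.31, and with the number as a block its SE was 0.07 and its adjusted p 0.362 in limma. WNT7B, a ligand of the canonical branch, differed by 0.08 ± 0.07 (SE). The 3 tested ligands had positive differences. WNT5B was the 1 at an unadjusted p under 0.05 in limma, and it was not at that level without aligned 3. Blocked by replicate number, WNT5A was at that level and WNT5B was not. That pairing was chosen from these same values, which favours a smaller SE with the block.

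WLS, the carrier that brings lipid-modified Wnt proteins to the cell surface, read 9.55, 9.46 and 9.75 on aligned fibers and 9.44, 9.14 and 9.38 on random fibers. All aligned arrays lay above all random arrays, though aligned 2 exceeded random 1 by little. The difference was 0.27 ± 0.11 (SE; adjusted p = 0.472 in limma), and 0.18 without aligned 3. Its 3 kept probe sets gave differences of 0.19 to 0.27. PORCN, the enzyme that attaches the lipid, had no probe set annotated to it alone.

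Frizzled proteins are the seven-pass receptors shared by both branches, and 7 of the 8 listed were tested. All 7 had a negative difference, with a median of -0.25 against 0.01 over all genes. FZD2, FZD5, FZD6 and FZD7 were at an unadjusted p under 0.05 in limma, against 10.5% of all genes. Of the 7 receptors 0 had an adjusted p under 0.05. The count of 4 was 6 without aligned 1, where 20.1% of all genes were at that level. It was 1 without aligned 2, aligned 3 or random 1, against 8.38%, 6.58% and 9.67% of all genes. Without random 3 it was 0, against 5.04%. Blocked by replicate number it was 3, without FZD5, against 13.6% of all genes. With array weights it was 7, but there 4326 of 12381 genes were at that level. The estimate of these weights did not converge. The median was -0.47 without aligned 1 and -0.19 without aligned 3. All 7 differences stayed negative with any array left out. All 13 kept Frizzled probe sets also had a negative difference.

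FZD7 read 7.86, 7.56 and 7.48 on aligned fibers and 8.09, 7.84 and 8.05 on random fibers. Only aligned 1 reached into the random range, just above random 2. The difference was -0.36 ± 0.12 (SE; adjusted p = 0.463 in limma), or 1.28-fold more signal on random fibers, and -0.28 without aligned 3. FZD2, a receptor used by WNT5A, read 7.88, 7.47 and 7.13 on aligned fibers and 8.18, 7.85 and 7.95 on random fibers. Aligned 1 again overlapped the lowest random array. The difference was -0.50 ± 0.19 (SE; adjusted p = 0.463 in limma), and -0.32 without aligned 3.

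FZD5 read 7.70, 7.73 and 7.11 on aligned fibers and 7.87, 7.98 and 8.20 on random fibers. The groups did not overlap, and aligned 3 was the lowest array by a wide margin. Its difference was -0.50 ± 0.18 (SE; adjusted p = 0.463 in limma) and -0.30 without aligned 3, while its dimmer probe set differed by only -0.05. FZD6 read 9.32, 9.17 and 9.03 on aligned fibers and 9.45, 9.36 and 9.49 on random fibers, again without overlap. It differed by -0.25 ± 0.09 (SE; adjusted p = 0.463 in limma). FZD1, FZD3 and FZD4 had differences of -0.25, -0.23 and -0.11, those of FZD3 and FZD4 being -0.11 and -0.06 without aligned 3, and in each of them aligned 1 was the highest of the 6 arrays. FZD8 had only probe sets that were annotated to another symbol as well, and was not tested.

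LGR4, a receptor for R-spondins that protects Frizzled receptors from degradation, had the largest negative difference of the members. It read 7.66, 7.24 and 6.36 on aligned fibers and 7.90, 7.84 and 7.90 on random fibers. The random arrays were nearly equal, whereas the aligned arrays spread widely, all of them below and aligned 3 by the most. The difference was -0.80 ± 0.29 (SE; adjusted p = 0.463 in limma), or 1.74-fold more signal on random fibers, and -0.44 without aligned 3. Its other kept probe set differed by -0.21.

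LRP6, a co-receptor of the canonical branch, read 8.34, 8.35 and 7.93 on aligned fibers and 8.42, 8.47 and 8.43 on random fibers. The aligned arrays lay below, but for aligned 1 and 2 by little. The difference was -0.24 ± 0.12 (SE; adjusted p = 0.495 in limma) and -0.10 without aligned 3. The other kept LRP6 probe sets differed by -0.07 and -0.06. LRP5, its close relative, differed by 0.03 ± 0.19 (SE), with a 95% interval from -0.40 to 0.47, and by -0.03 without aligned 3. RYK, an atypical tyrosine kinase receptor for Wnt proteins, differed by -0.04 ± 0.07 (SE), with an interval from -0.21 to 0.12. ROR1 and ROR2, the tyrosine kinase receptors through which WNT5A acts, were below the filter. ROR1 read 4.95, 5.18 and 5.36 on aligned fibers and 5.02, 4.99 and 4.88 on random fibers. ROR2 read 3.98, 3.74 and 3.67 on aligned fibers and 4.07, 3.65 and 3.70 on random fibers. Both lay below the array median on all 6 arrays, so these values carry no statement on a difference.

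**Figure D2:**
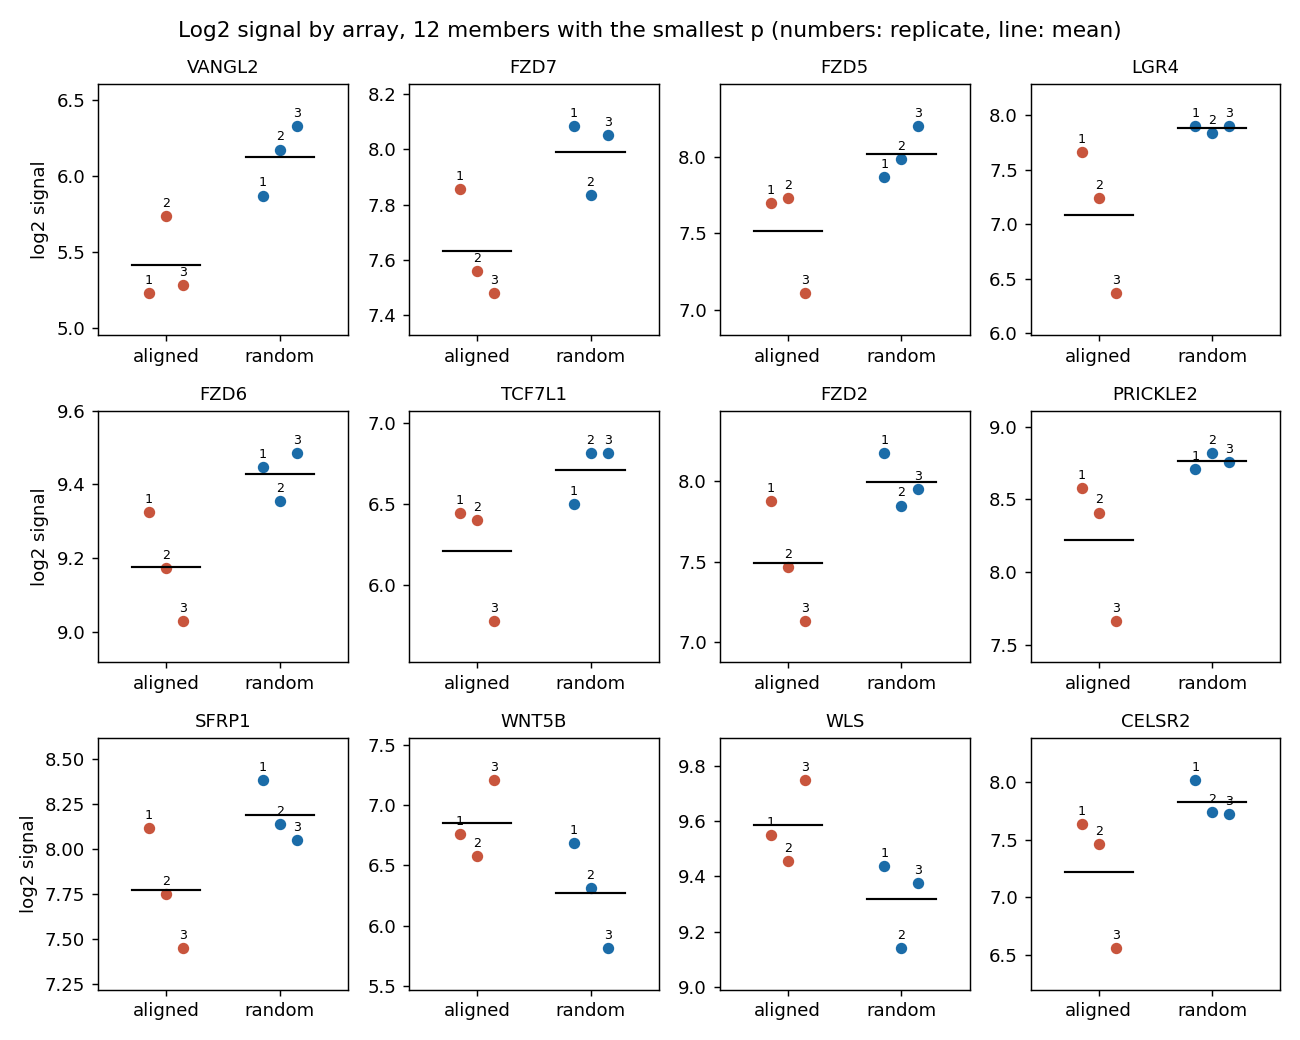
Log2 signal (y axis) on each aligned and random array for the 12 members with the smallest p, with replicate numbers and a line at each group's mean; the scale differs between panels. The lowest aligned value is that of aligned 3 in FZD5, FZD6, LGR4, TCF7L1, PRICKLE2 and CELSR2, where aligned 1 and 2 also lie below all random arrays.

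The planar polarity core is formed by VANGL, CELSR and PRICKLE proteins at opposite faces of a cell. All 5 listed genes were tested and had negative differences, with a median of -0.54. VANGL2 and PRICKLE2 were at an unadjusted p under 0.05 in limma, against 10.5% of all genes. Of the 5 genes 0 had an adjusted p under 0.05. The count of 2 became 4 when the fit was blocked by replicate number or left out aligned 1. In these fits 13.6% and 20.1% of all genes were at that level. The count was 1 when the fit left out random 1 or random 2, against 9.67% and 5.97% of all genes. The median was -0.27 without aligned 3. Aligned arrays lay below all random arrays in 4 of the 5 genes, with PRICKLE1 the exception, against 9.33% of all genes.

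VANGL2, a transmembrane protein of the core, read 5.23, 5.74 and 5.29 on aligned fibers and 5.87, 6.18 and 6.33 on random fibers. The groups did not overlap, and the lowest array was aligned 1 and not aligned 3. The difference was -0.71 ± 0.17 (SE; adjusted p = 0.463 in limma), or 1.64-fold more signal on random fibers, and -0.64 without aligned 3. Its signal lay near the array median, where aligned 1 and 3 were below it and the random arrays above. VANGL1, its relative, read 9.59, 9.65 and 9.51 on aligned fibers and 9.68, 9.72 and 9.65 on random fibers. The highest aligned array and the lowest random array were nearly equal, and the difference was -0.10 ± 0.07 (SE; adjusted p = 0.584 in limma), or -0.07 without aligned 3.

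CELSR2, an atypical cadherin that couples neighbouring cells, read 7.64, 7.46 and 6.56 on aligned fibers and 8.02, 7.74 and 7.72 on random fibers. All aligned arrays lay below, aligned 3 by the most. The difference was -0.61 ± 0.26 (SE; adjusted p = 0.472 in limma), and -0.28 without aligned 3. Both of its probe sets differed by -0.61, though in the dimmer one aligned 1 overlapped the random arrays. PRICKLE2, a cytoplasmic partner of VANGL proteins, read 8.58, 8.41 and 7.67 on aligned fibers and 8.71, 8.82 and 8.76 on random fibers. These groups did not overlap, and the difference was -0.54 ± 0.22 (SE; adjusted p = 0.472 in limma), or -0.27 without aligned 3. PRICKLE1 read 10.12, 9.83 and 9.60 on aligned fibers and 10.42, 10.22 and 9.80 on random fibers. Its groups overlapped, but each aligned array lay below the random array of the same number, by 0.30, 0.39 and 0.19. The difference was -0.29 ± 0.19 without the block and ± 0.07 with it (SE; adjusted p = 0.547 and 0.362 in limma), and it was -0.17 without aligned 3. A smaller SE with the block was favoured by a pairing chosen from these same values.

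Dishevelled proteins relay the signal of Frizzled receptors in both branches. DVL1 read 9.15, 9.57 and 10.00 on aligned fibers and 9.06, 9.15 and 9.17 on random fibers. Aligned 2 and 3 lay above all random arrays, and the difference was 0.44 ± 0.19 (SE; adjusted p = 0.472 in limma), or 0.23 without aligned 3. DVL2 read 8.41, 8.56 and 8.48 on aligned fibers and 8.57, 8.64 and 8.77 on random fibers. There the aligned arrays lay below, by -0.18 ± 0.08 (SE; adjusted p = 0.476 in limma), and by -0.18 also without aligned 3. The dimmer DVL2 probe set differed by -0.05. DVL3 differed by -0.10 ± 0.08 (SE), or by -0.05 without aligned 3, and its 2 probe sets had opposite signs. The 3 relatives thus did not share a sign.

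Among secreted inhibitors, SFRP1, which binds Wnt proteins, read 8.12, 7.75 and 7.45 on aligned fibers and 8.38, 8.14 and 8.05 on random fibers. Aligned 1 overlapped the random arrays and the other aligned arrays lay below. The difference was -0.42 ± 0.17 (SE; adjusted p = 0.472 in limma) and -0.26 without aligned 3, and its 3 kept probe sets gave -0.42 to -0.28. DKK1, which blocks LRP5 and LRP6, read 12.44, 12.12 and 11.83 on aligned fibers and 12.10, 11.83 and 11.74 on random fibers. Aligned 3 was here the lowest aligned array and lay within the random range. The difference was 0.24 ± 0.16 (SE; adjusted p = 0.570 in limma), and 0.39 without aligned 3. DKK3, a divergent member of the DKK family, read 10.50, 10.32 and 10.82 on aligned fibers and 10.58, 10.03 and 9.94 on random fibers. Random 1 lay among the aligned arrays, and the difference was 0.36 ± 0.19 (SE; adjusted p = 0.503 in limma) or 0.23 without aligned 3, with all 4 kept probe sets positive. The Wnt-binding proteins FRZB and WIF1 were below the filter, with means of 4.18 and 2.83 on aligned fibers and 4.30 and 2.90 on random fibers.

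The feedback genes that beta-catenin signalling is known to induce showed small differences. AXIN2, the most widely used readout of the branch, read 6.12, 5.91 and 6.01 on aligned fibers and 6.01, 5.87 and 5.85 on random fibers. The groups overlapped, and the difference was 0.10 ± 0.09 (SE; adjusted p = 0.633 in limma), with a 95% interval from -0.10 to 0.31. This probe set was dim, at percentile 55.3 of all probe sets. The other AXIN2 probe sets were below the filter, with differences of 0.02, -0.03 and -0.21. ZNRF3, a ubiquitin ligase that removes Frizzled receptors, differed by 0.03 ± 0.08 (SE), and NKD1, an antagonist of Dishevelled, by 0.05 ± 0.12 (SE). Without aligned 3 ZNRF3 differed by 0.07 and NKD1 by -0.0023. RNF43, the partner of ZNRF3, was below the filter at 5.23 on aligned and 5.20 on random fibers.

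In the destruction complex, AXIN1, the scaffold, read 7.54, 7.62 and 7.80 on aligned fibers and 7.51, 7.45 and 7.42 on random fibers. The aligned arrays lay above without overlap, by 0.19 ± 0.09 (SE; adjusted p = 0.474 in limma), or by 0.12 without aligned 3. APC, the tumour suppressor of the complex, read 8.41, 8.21 and 7.87 on aligned fibers and 8.43, 8.39 and 8.53 on random fibers. Aligned 1 overlapped the random arrays, and the difference was -0.29 ± 0.14 (SE; adjusted p = 0.482 in limma), or -0.14 without aligned 3. All 5 kept APC probe sets had a negative difference. GSK3B, the kinase that marks beta-catenin for removal, read 9.42, 9.39 and 9.20 on aligned fibers and 9.46, 9.32 and 9.29 on random fibers. Its difference was -0.02 ± 0.09 (SE; adjusted p = 0.935 in limma), and 0.05 without aligned 3.

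Of the nuclear factors, TCF7L1, mostly a repressor of Wnt targets, read 6.44, 6.40 and 5.78 on aligned fibers and 6.50, 6.82 and 6.82 on random fibers. The groups did not overlap, with aligned 1 close to random 1. The difference was -0.50 ± 0.19 (SE; adjusted p = 0.463 in limma), and -0.29 without aligned 3. TCF7L2 read 10.73, 10.59 and 10.47 on aligned fibers and 10.74, 10.79 and 10.62 on random fibers. It differed by -0.12 ± 0.09 (SE; adjusted p = 0.614 in limma), or by -0.06 without aligned 3, and 6 of its 7 kept probe sets were negative. LEF1, an activator that is itself a target of the pathway, read 8.89, 9.14 and 9.37 on aligned fibers and 8.86, 9.16 and 9.12 on random fibers. Its difference was 0.08 ± 0.14 (SE; adjusted p = 0.811 in limma) and -0.03 without aligned 3. The co-repressors TLE1 and TLE3 differed by -0.01 ± 0.07 and -0.13 ± 0.08 (SE).

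Set side by side, the planar polarity members had a median log2 difference of -0.20 and the canonical members one of -0.02, against 0.01 over all genes. That of the members shared by both branches was -0.18, close to the planar polarity value. Of 8 tested planar polarity members 6 were negative, and 2 negative and 1 positive were at an unadjusted p under 0.05 in limma. Of 14 tested canonical members 8 were negative, and LGR4 and TCF7L1 were at that level. Over all genes tested 10.5% were at that level, near the 14.3% of the canonical members. Blocked by replicate number, the planar polarity count of 3 became 5, and without random 2 it became 1. In these fits 13.6% and 5.97% of all genes were at that level. The canonical count of 2 became 5 when aligned 1 was dropped, 4 of them negative, against 20.1% of all genes. It became 1 without random 1, against 9.67%, and 0 without random 2 or random 3, against 5.97% and 5.04%. In both branches 0 members had an adjusted p under 0.05. The planar polarity median was -0.12 without aligned 3 and -0.13 without random 1. The canonical median was -0.03 without aligned 3. With no filter on dim signals, so that ROR1 and ROR2 entered, the planar polarity median was -0.0722 and the canonical one -0.0114.

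By array, the median deviation of the planar polarity members from the mean of the random arrays was -0.06, -0.21 and -0.36 on aligned 1, 2 and 3, and 0.12, 0.04 and -0.07 on random 1, 2 and 3. Aligned 1 and random 3 were thus nearly equal. For the canonical members the deviation was 0.01, -0.05 and -0.11 on the aligned arrays, and 0.02, -0.02 and -0.03 on the random arrays. For the shared members it was 0.02, -0.20 and -0.21 on the aligned arrays, and 0.09, -0.03 and 0.03 on the random arrays. Within the planar polarity branch the ligands WNT5A and WNT5B were positive and the core proteins negative, so that its median does not describe all of its members. The difference between the branches was not tested.

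**Figure D3:**
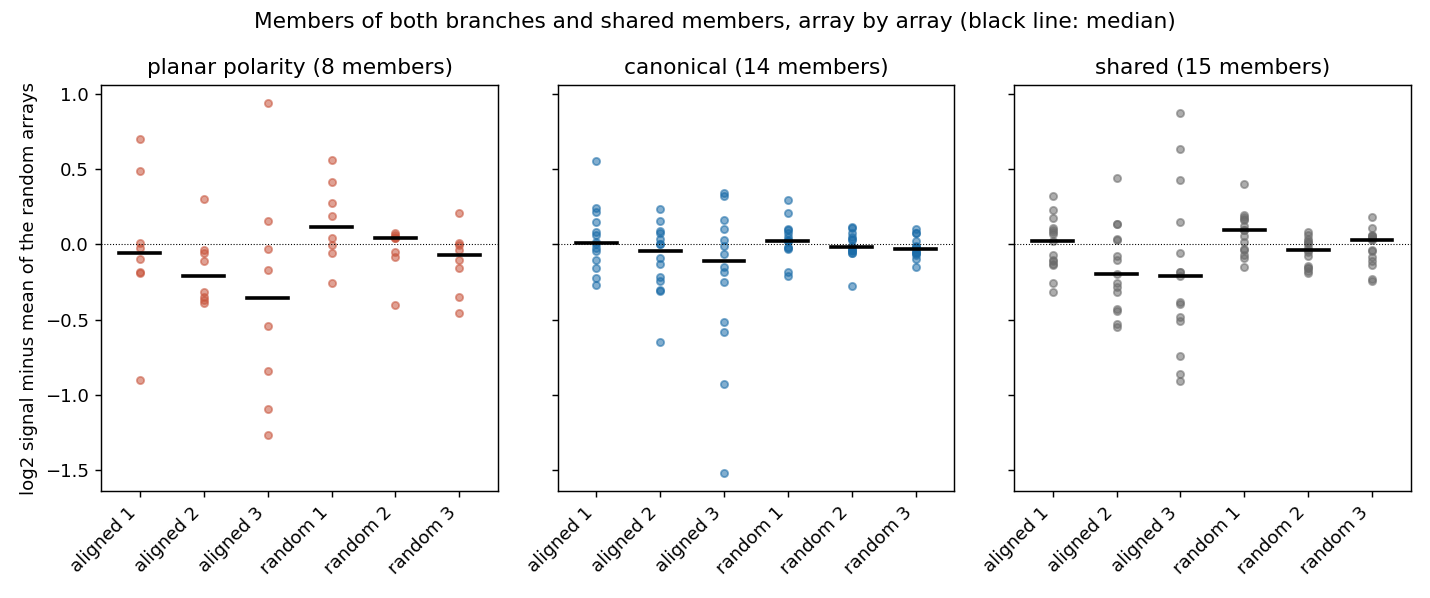
Log2 signal minus the mean of the random arrays (y axis) for each member on each array, for the planar polarity, canonical and shared members; black lines are medians. In each group the medians on aligned 2 and 3 lie below those of all random arrays. They are -0.21 and -0.36 for planar polarity, -0.05 and -0.11 for canonical, and -0.20 and -0.21 for shared members.

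Several probe sets were kept for 25 members, and in 20 of them all probe sets had the same sign. The signs were mixed in DVL3, GSK3B, PRICKLE1, TCF7L2 and TLE1, whose brightest probe sets differed by -0.29 to -0.01. Probe sets of 1 gene share its RNA and are no replicates of the comparison. In LGR4, FZD5, LRP6 and DVL2, among others, the brightest probe set gave a larger difference than the dimmer ones.

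**Figure D4:**
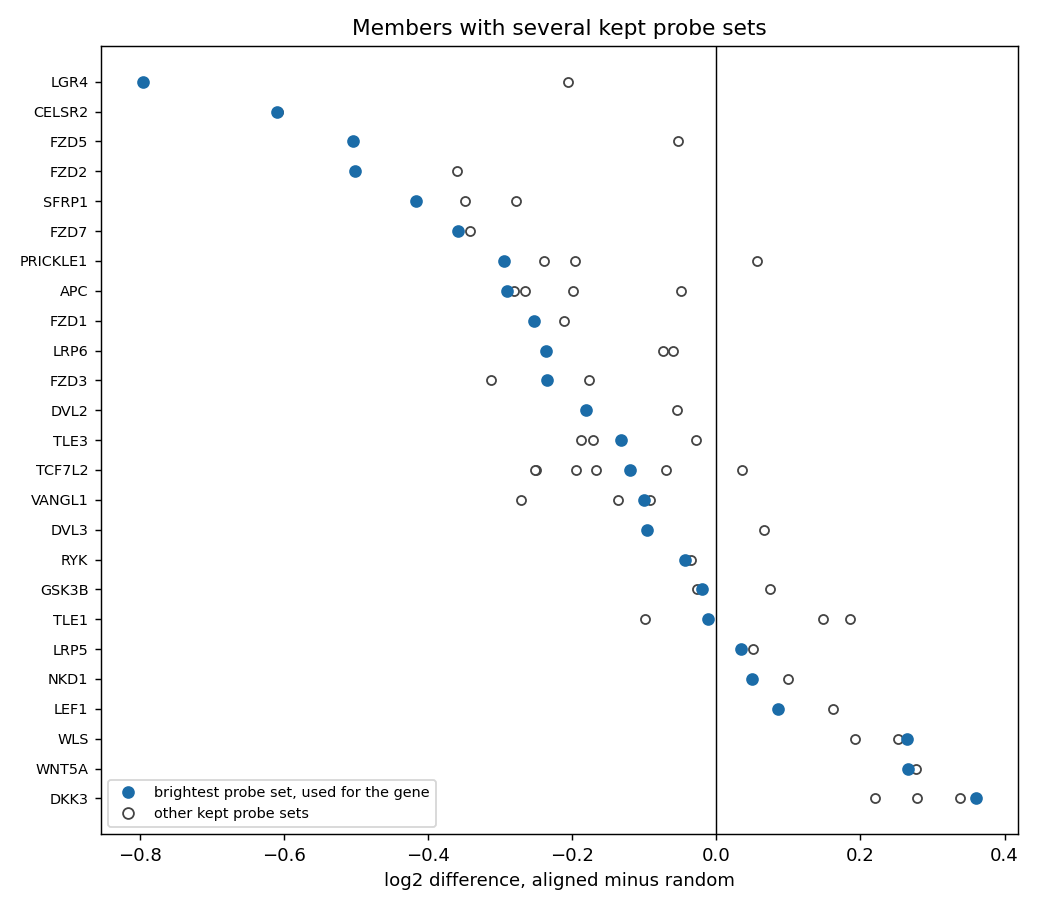
Log2 difference between aligned and random fibers (x axis) for each kept probe set of the 25 members that had several. Filled circles are the brightest probe set, used for the gene, and open circles the others, with that of CELSR2 hidden behind its filled circle; FZD2, FZD7, SFRP1, APC and CELSR2 have all probe sets left of 0, and WLS, WNT5A and DKK3 all right of 0.

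Beyond the members, 98 other genes of the pathway were listed and 62 were tested. At an unadjusted p under 0.05 in limma 5 were negative and 4 positive, against 5.81% and 4.72% of all genes, and 0 had an adjusted p under 0.05. Their median difference was -0.03, or -0.0073 without aligned 3. The 5 tested ligands WNT6, WNT10A, WNT10B, WNT11 and WNT16 had differences of 0.04 to 0.21, or 0.03 to 0.27 without aligned 3. With all arrays 0 of these 5 were at an unadjusted p under 0.05 in limma, and without aligned 3 or blocked by replicate number WNT16 was. Of 5 tested receptors 4 were negative, led by GPC4, a cell surface proteoglycan, at -0.46 ± 0.27 (SE), or -0.19 without aligned 3. NOTUM, a secreted enzyme that removes the lipid of Wnt proteins, differed by -0.01, or by 0.04 without aligned 3.

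Of 13 other nuclear effectors 10 had a negative difference, against 47.5% of all genes. Of these, 3 were at an unadjusted p under 0.05 in limma, while 5.81% of all genes were at that level with a negative difference. Without random 2 the count was 0, against 5.97% of all genes in both directions. The co-repressor TLE4 read 7.43, 7.22 and 6.90 on aligned fibers and 7.52, 7.80 and 7.61 on random fibers, a difference of -0.46 ± 0.14 (SE; adjusted p = 0.463 in limma). The beta-catenin partner BCL9 and the acetyltransferase CREBBP differed by -0.25 ± 0.09 and -0.18 ± 0.06 (SE). In all of these the aligned arrays lay below the random arrays. Beta-catenin itself, CTNNB1, differed by -0.15 ± 0.10 (SE; adjusted p = 0.540 in limma), or by -0.08 without aligned 3. Of 13 tested genes of the beta-catenin machinery beside the members, CSNK1E, a kinase that acts on Dishevelled, was positive at 0.29 ± 0.11 (SE; adjusted p = 0.472 in limma).

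Of 16 other planar polarity effectors 9 were negative, against 47.5% of all genes. SMURF2 alone, 6.25% of this list, was at an unadjusted p under 0.05 in limma, below the 10.5% of all genes. SMURF2, a ubiquitin ligase that in mice removes Prickle proteins, read 9.64, 9.72 and 10.08 on aligned fibers and 9.33, 9.30 and 9.20 on random fibers. The aligned arrays all lay above, by 0.54 ± 0.12 (SE; adjusted p = 0.463 in limma), and by 0.40 without aligned 3. It stayed at an unadjusted p under 0.05 with any array left out. The GTPases RHOA and RAC1, which act on the cytoskeleton in this branch, differed by 0.03 and -0.03, or by -0.0038 and 0.02 without aligned 3. The kinase genes MAPK9 and MAPK8 differed by 0.15 ± 0.08 and 0.09 ± 0.09 (SE), and that of MAPK9 was 0.10 without aligned 3.

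Of 20 textbook targets of beta-catenin 15 were tested, with a median difference of 0.03. At an unadjusted p under 0.05 in limma 2 were negative and 2 positive, against 5.81% and 4.72% of all genes. With adjustment 0 had a p under 0.05. CCND1, the G1 cyclin, read 10.65, 10.76 and 11.21 on aligned fibers and 10.49, 10.29 and 9.32 on random fibers. MYC, the growth regulator, read 8.60, 8.92 and 10.02 on aligned fibers and 8.51, 8.58 and 7.77 on random fibers. In both, aligned arrays lay above all random arrays, with aligned 3 the highest and random 3 the lowest. Their differences were 0.84 ± 0.30 and 0.89 ± 0.38 (SE; adjusted p = 0.463 and 0.472 in limma), or 0.67 and 0.47 without aligned 3. TNFRSF19, a receptor of the tumour necrosis factor family, read 7.32, 7.20 and 6.37 on aligned fibers and 7.78, 7.72 and 7.94 on random fibers. BAMBI, a decoy receptor for TGF-beta and BMP, read 7.37, 7.51 and 7.64 on aligned fibers and 7.92, 7.80 and 8.26 on random fibers. In both the aligned arrays lay below without overlap, by -0.85 ± 0.23 and -0.48 ± 0.13 (SE; adjusted p = 0.463 each in limma), or by -0.56 and -0.55 without aligned 3. MYC and CCND1 were again at an unadjusted p under 0.05 in limma without aligned 1 and with no filter, but not in every fit. With aligned 2 or any random array left out, CCND1 was the 1 positive target at that level. Without aligned 3 it was DKK1, and neither CCND1 nor MYC. Blocked by replicate number, the positive targets were DKK1 and TBX3, a transcription factor named here after its values were seen, and again neither CCND1 nor MYC. TNFRSF19 and BAMBI were the negative targets in each of these fits. The targets therefore had no common sign, and AXIN2, LEF1, NKD1 and ZNRF3 were among those near 0.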

How the data were processed

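Total RNA of 6 cultures was read on 1 array each. The deposited table holds log2 signals. RMA, which corrects background, normalizes arrays and summarises each probe set, is the method of the authors per the submitters' processing notes; its version is not given in the sources consulted. After removal of 62 control probe sets, 27621 probe sets above the array median on at least 3 arrays were kept, and genes were named from platform annotation with 1 symbol. Aligned minus random was fitted on 12381 genes with limma 3.58.1 in R 4.3.3, without covariate and with Benjamini-Hochberg adjustment, and the code was tested on simulated data. The number of arrays limits the precision, with a median SE of 0.10 log2 units. The members and gene lists were chosen with earlier results of these data known. Named genes were the 12 members with the smallest p, a set of listed members, and leading genes of each other list. WNT3, FZD8 and PORCN had no probe set with that symbol alone, and WNT2B, RNF43, ROR1, ROR2, FRZB and WIF1 were below the filter.

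Replicate numbers 1 to 3 occur in both groups. Deviations from the group means correlated by 0.369, 0.322 and 0.109 between arrays of the same number, so with a limit of 0.1 the numbers were taken as pairs. Without the filter the third value was 0.0777. With the filter aligned 2 with random 3, which differ in number, gave 0.188, more than the 0.109 of the third pair. The pairing thus comes from the values and from no label. The other settings tried were other filters, normalizations, priors, array weights, probe set choices and each array left out. Plots were made in Python 3.11.15 (matplotlib 3.10.9).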

Additional observations from a re-analysis of the deposited data

How the results depend on the processing

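With 15 other settings, 0 genes had an adjusted p under 0.05 in limma except with array weights. Array weights gave 2101 such genes, 4326 genes at an unadjusted p under 0.05 and 21 members at that level, 16 of which had an adjusted p under 0.05. That estimate did not converge, with a weight of 15.24 for aligned 2 and 0.2449 for aligned 3. The filter at the 75th percentile, which tests fewer genes, left 851 genes at an unadjusted p under 0.05, against 1303. With each array left out in turn, 624 to 2491 genes and 2 to 17 members were at that level. The planar polarity median then ranged from -0.294 to -0.118 and the canonical median from -0.0651 to -0.0028. With the mean of each gene's probe sets the canonical median was 0.0258 and GSK3B differed by 0.00905. GSK3B differed by 0.0412 with array weights and by -0.0603 to 0.0458 with 1 array left out, and LEF1 by -0.0328 to 0.206. The cause was not tested. The 11 members at an unadjusted p under 0.05 kept their sign in every setting that tested them. With the replicate number as a block 0 genes had an adjusted p under 0.05 in limma, 1687 genes and 14 members were at an unadjusted p under 0.05, and 9 of the 11 were among the 14.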
